A study of Saccharomyces cerevisiae BY4741 with 8 samples.

Results

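The genes described here encode the enzymes of the tricarboxylic acid (TCA) cycle, the glyoxylate cycle and gluconeogenesis of Saccharomyces cerevisiae, with the enzymes that join these routes to pyruvate and acetate. They were chosen by gene name as 32 of the 5782 genes listed, and all 32 were tested. The groups by role were the TCA cycle with 17 genes, the glyoxylate cycle with 5, the NADP-dependent isocitrate dehydrogenases with 3, the pyruvate and gluconeogenic enzymes with 5, and the acetyl-CoA synthetases with 2. Poly(A) RNA was sequenced from 4 groups of 2 biological replicates: BY4741(yrr1Δ) in SD with 5 mM vanillin, BY4741(yrr1Δ) in SD, BY4741 in SD with 5 mM vanillin, and BY4741 in SD. The dose is that of the sample labels, whereas the headers of the deposited comparison tables, not used here, read 6 mM. SD is a synthetic medium with 20 g/L glucose, and vanillin is a phenolic aldehyde that inhibits yeast growth. BY4741 is a haploid laboratory strain of mating type MATa with the genotype his3Δ1 leu2Δ met5Δ ura3Δ as given in the methods, and every group shares this background. BY4741(yrr1Δ) differs from it by the deletion of YRR1, which encodes a zinc cluster transcription factor of drug resistance genes. Cultures were started at an OD600 of 0.2, grown at 30 °C and harvested in log phase at an OD600 of 1.6 to 2.0. The OD600 and the hours at harvest of each culture are not given in the sources used here. The comparisons ask how these enzymes responded to vanillin in each strain and whether the loss of YRR1 altered their levels or that response.

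The TCA cycle oxidizes acetyl-CoA in the mitochondrion to carbon dioxide and passes the electrons to the respiratory chain. The glyoxylate cycle by-passes its decarboxylating steps so that cells can build sugars from acetate or ethanol, and gluconeogenesis carries the product up to glucose phosphates. In glucose medium S. cerevisiae ferments, most genes of these routes are repressed, and the part of the TCA cycle that makes 2-oxoglutarate for amino acid synthesis is held up by the retrograde factors Rtg1p and Rtg3p.

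Stretches upstream of the genes that the results turn on show which known regulator motifs they carry. The sequences were read from RefSeq assembly R64 and run 5′ to 3′ on the strand of the gene. The first 3 stretches belong to CIT2, PYC1 and PYC2, and the capitals mark the R box, GTCAC on either strand, which Rtg1p and Rtg3p bind. They begin 400, 500 and 500 bases before the start codon.
CIT2 (chrIII:122529-122728, minus strand): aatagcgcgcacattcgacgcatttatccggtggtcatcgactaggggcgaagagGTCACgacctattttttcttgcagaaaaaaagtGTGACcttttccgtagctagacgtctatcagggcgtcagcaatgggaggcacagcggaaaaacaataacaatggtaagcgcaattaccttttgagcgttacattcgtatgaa
PYC1 (chrVII:384696-384795, plus strand): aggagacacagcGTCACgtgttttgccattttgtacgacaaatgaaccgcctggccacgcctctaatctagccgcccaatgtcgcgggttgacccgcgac
PYC2 (chrII:662650-662749, minus strand): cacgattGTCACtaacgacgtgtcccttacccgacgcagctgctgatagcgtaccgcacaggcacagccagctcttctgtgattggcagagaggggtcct
In the stretch of MDH1, which begins 300 bases before the start codon, the capitals mark CCAAT boxes, CCAAT on either strand, the core of the site of the Hap2/3/4/5 complex that activates respiratory genes.
MDH1 (chrXI:278823-279022, plus strand): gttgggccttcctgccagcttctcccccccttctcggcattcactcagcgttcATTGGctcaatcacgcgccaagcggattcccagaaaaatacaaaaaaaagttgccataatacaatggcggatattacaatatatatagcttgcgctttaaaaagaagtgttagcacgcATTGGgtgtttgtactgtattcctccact
In the stretches of ICL1, ACS1 and MDH3, which begin 450, 450 and 350 bases before the start codon, the capitals mark matches to CC, any 2 bases, T, any 3 bases and CCG on either strand, a form of the carbon source response element bound by Cat8p and Sip4p.
ICL1 (chrV:287265-287364, minus strand): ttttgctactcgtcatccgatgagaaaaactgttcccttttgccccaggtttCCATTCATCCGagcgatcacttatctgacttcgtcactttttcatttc
ACS1 (chrI:45373-45472, minus strand): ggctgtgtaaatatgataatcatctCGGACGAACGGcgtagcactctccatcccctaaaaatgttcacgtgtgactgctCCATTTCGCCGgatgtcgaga
MDH3 (chrIV:316639-316738, minus strand): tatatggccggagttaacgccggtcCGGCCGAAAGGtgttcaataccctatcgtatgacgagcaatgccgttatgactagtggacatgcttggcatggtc
All 32 genes were searched from 101 to 500 bases before the start codon, on both strands, and the same window was searched for 5724 genes. An R box was found in 19 of the 32 windows (59.4%), against 37.7% of all windows, and CIT2 and IDP2 held 3 matches each. A CCAAT box was found in 29 of the 32 (90.6%), against 55.3% of all, and the genes without one were LSC1, LSC2 and IDH2. The response element was found in 10 of the 32 (31.2%), against 6.57% of all: CIT3, FUM1, ICL1, MLS1, MDH2, MDH3, IDP2, PYC1, PCK1 and ACS1. The letters GNGGGG, with N any base, were searched as a loose form of the Mig1p site, and they also match plain runs of G. They were found in 13 of the 32 (40.6%), against 20.3% of all, which are not shares of Mig1p sites. The matches can overlap each other, as the 6 upstream of ACS1 do. The window reached into a neighbouring gene for 14 of the 32. A match is a description of the letters and was not tested as a site.

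Levels are given as FPKM, the deposited read level scaled to coding length and library size. CIT2 had the highest mean over the 8 libraries at 679 FPKM, and MLS1 the lowest at 7.06 FPKM. The median of the 32 means was 215 FPKM, whereas the median of all genes in a library lay between 44.05 and 55.63 FPKM. Of the 17 TCA cycle genes, 13 had means from 205 FPKM for SDH4 to 504 FPKM for CIT1. Several enzymes of the glyoxylate cycle and gluconeogenesis were low in every library: malate synthase gene MLS1 at 3.94 to 10.6 FPKM, phosphoenolpyruvate carboxykinase gene PCK1 at 6.89 to 9.89 FPKM and fructose-1,6-bisphosphatase gene FBP1 at 5.26 to 17.0 FPKM. Isocitrate lyase gene ICL1, at 32.7 to 54.2 FPKM, reached the range of the library medians. Ordered by mean level, every neighbouring pair of genes overlapped in its range over the 8 libraries.

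**Figure D1:**
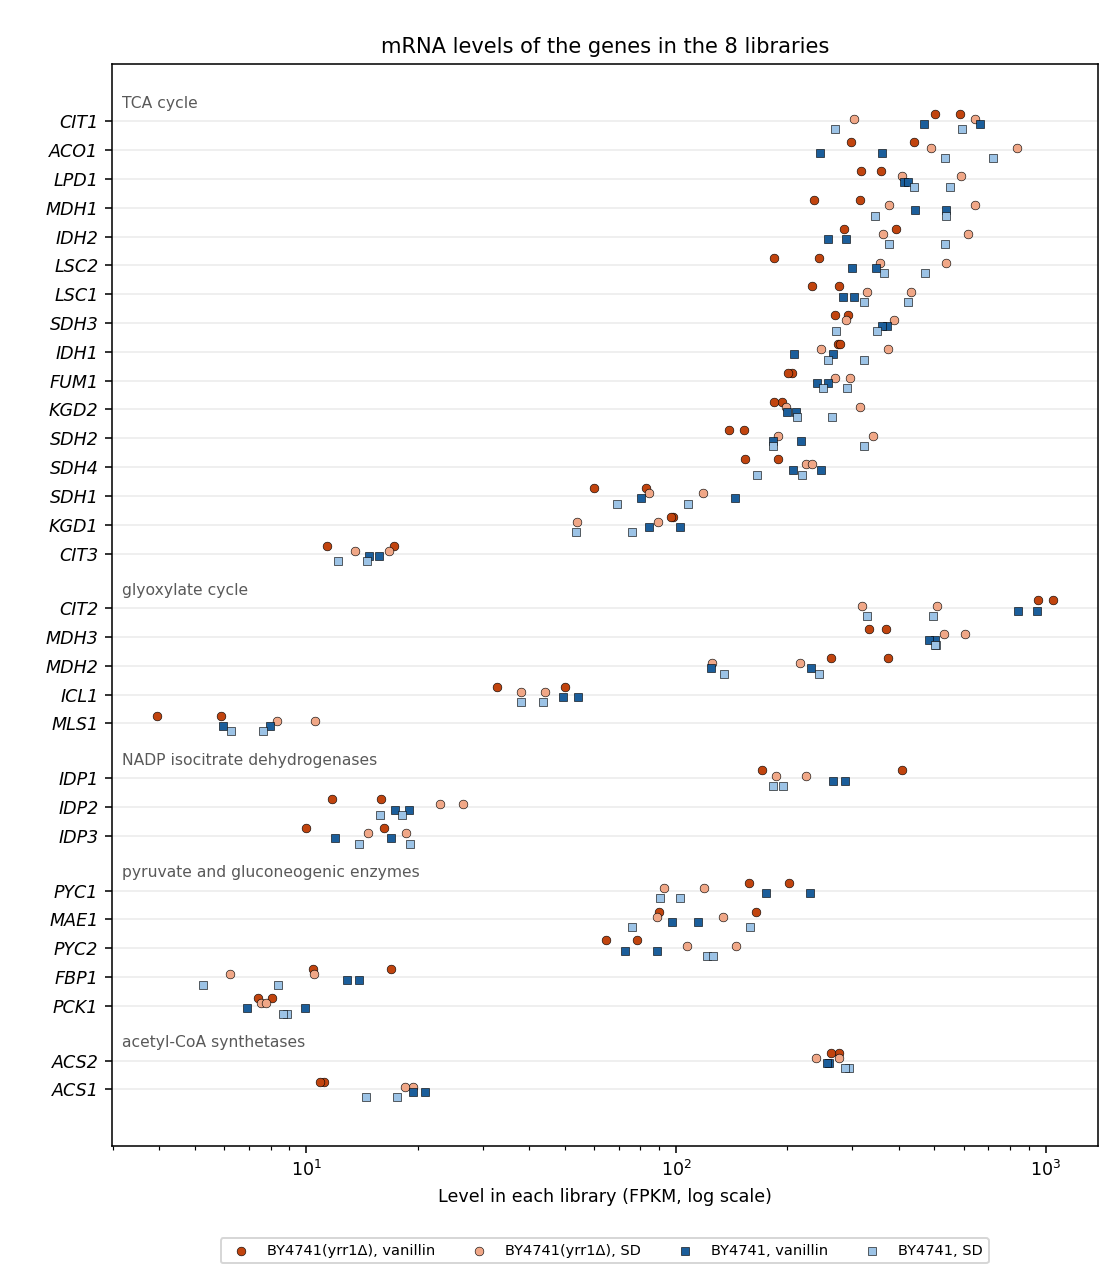
FPKM of each of 31 genes in each of the 8 libraries on a log axis, with the genes in rows by role and by falling mean, circles for BY4741(yrr1Δ), squares for BY4741, dark symbols for vanillin and pale symbols for SD. CIT2 lies between 952 and 1045 FPKM in BY4741(yrr1Δ) with vanillin and between 318 and 507 FPKM in BY4741(yrr1Δ) in SD, while MLS1, PCK1 and FBP1 stay at or below 17.0 FPKM in all 8.

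Each library held 2195324 to 2453837 expected counts, an estimate of the reads from each gene, and a member gene had 11 to 4228 counts in a library. YRR1 had 0 and 1 counts in BY4741(yrr1Δ) with vanillin, 2 and 1 in BY4741(yrr1Δ) in SD, 82 and 100 in BY4741 with vanillin, and 77 and 73 in BY4741 in SD. Strain lists of BY4741 name MET15, here MET17, as deleted, where the methods give met5Δ. MET17 had 0.0 to 3.37 FPKM in the libraries, LEU2 0.0 to 0.94 FPKM and URA3 0.0 to 1.35 FPKM. HIS3, given as his3Δ1, was by contrast present in every library, at 42.3 to 147 FPKM. It was called lower with vanillin in BY4741(yrr1Δ) (log2 fold change -1.46, edgeR FDR 0.014). The source of the HIS3 reads was not tested. Of 7 MATa genes listed, the 2 pheromone genes MFA1 and MFA2 were not found. The other 5 summed to 707 to 1033 FPKM per library and the 4 MATα genes to 30.8 to 67.8 FPKM. Of the MATα genes, MF(ALPHA)1, which encodes the alpha pheromone, had 4.50 and 3.66 FPKM in BY4741(yrr1Δ) with vanillin, 1.17 and 1.20 FPKM in BY4741(yrr1Δ) in SD, 32.2 and 26.6 FPKM in BY4741 with vanillin, and 0.0 and 1.20 FPKM in BY4741 in SD. It was called higher with vanillin in BY4741 (edgeR FDR 0.0056), and its part in the results for the 32 genes was not tested. Replicates differed within each group. The difference between replicates 1 and 2 ran in opposite directions in BY4741(yrr1Δ) and BY4741 in SD, with a correlation of -0.58 across the 5506 genes tested, which are not independent replicates. Among the 32 genes, 23 were higher in replicate 2 of BY4741(yrr1Δ) in SD, and 23 were higher in replicate 1 of BY4741 in SD. With vanillin, 24 were higher in replicate 1 of BY4741(yrr1Δ) and 24 in replicate 2 of BY4741. Results below are also given without BY4741(yrr1Δ) replicate 1 and BY4741 replicate 2 in SD, the lower library of each pair, and without the higher ones. This choice was made after seeing the data.

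In BY4741(yrr1Δ), vanillin raised 1 of the 32 genes and lowered 7. CIT2, the peroxisomal citrate synthase, rose 2.25-fold, while LSC2, MDH1, LPD1 and FUM1 of the TCA cycle, the malate dehydrogenase gene MDH3, the pyruvate carboxylase gene PYC2 and the acetyl-CoA synthetase gene ACS1 fell. A gene is said to have risen or fallen where the FDR of edgeR's quasi-likelihood test, adjusted by Benjamini-Hochberg over all 5506 genes tested, was at most 0.05. Fold changes were computed on counts scaled by TMM, so they can differ a little from ratios of the FPKM. Over all genes 4.58% rose and 6.63% fell, against 3.12% and 21.9% of the 32. With library size as the only scaling, which moves the median of all genes to 0.13 in BY4741(yrr1Δ) and -0.13 in BY4741 on the log2 scale, 384 of all genes rose and 305 fell in BY4741(yrr1Δ), against 252 and 365 with the main scaling. The median log2 fold change of the 32 was -0.50, against 0.01 over all genes, and 23 of the 32 were negative, against 48.7% of all genes. On normalized counts, both vanillin values were below both SD values for 19 of the 32 (59.4%), against 26.7% of all genes. With the limits used in the study, an FDR of 0.001 or below together with a change of 2-fold or more, 0 of the 32 were called in BY4741(yrr1Δ) and 0 in BY4741, against 0.272% and 0.182% of all genes.

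In BY4741, vanillin raised 2 of the 32 genes, CIT2 and the pyruvate carboxylase gene PYC1, and lowered none. Over all genes 2.32% rose and 0.817% fell, against 6.25% and 0.0% of the 32, and library size alone gave 115 risen and 67 fallen genes, against 128 and 45. An unadjusted p under 0.05 was lower for 4 of the 32, against 7.41% of all genes, and DESeq2 called 1 gene lower, ACO1. The median of the 32 was 0.06, against -0.02 over all genes, and it was -0.0461 with library size alone. On normalized counts the groups did not overlap for 12 genes that were higher and 7 that were lower with vanillin, against 27.5% and 26.6% of all genes.

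**Figure D2:**
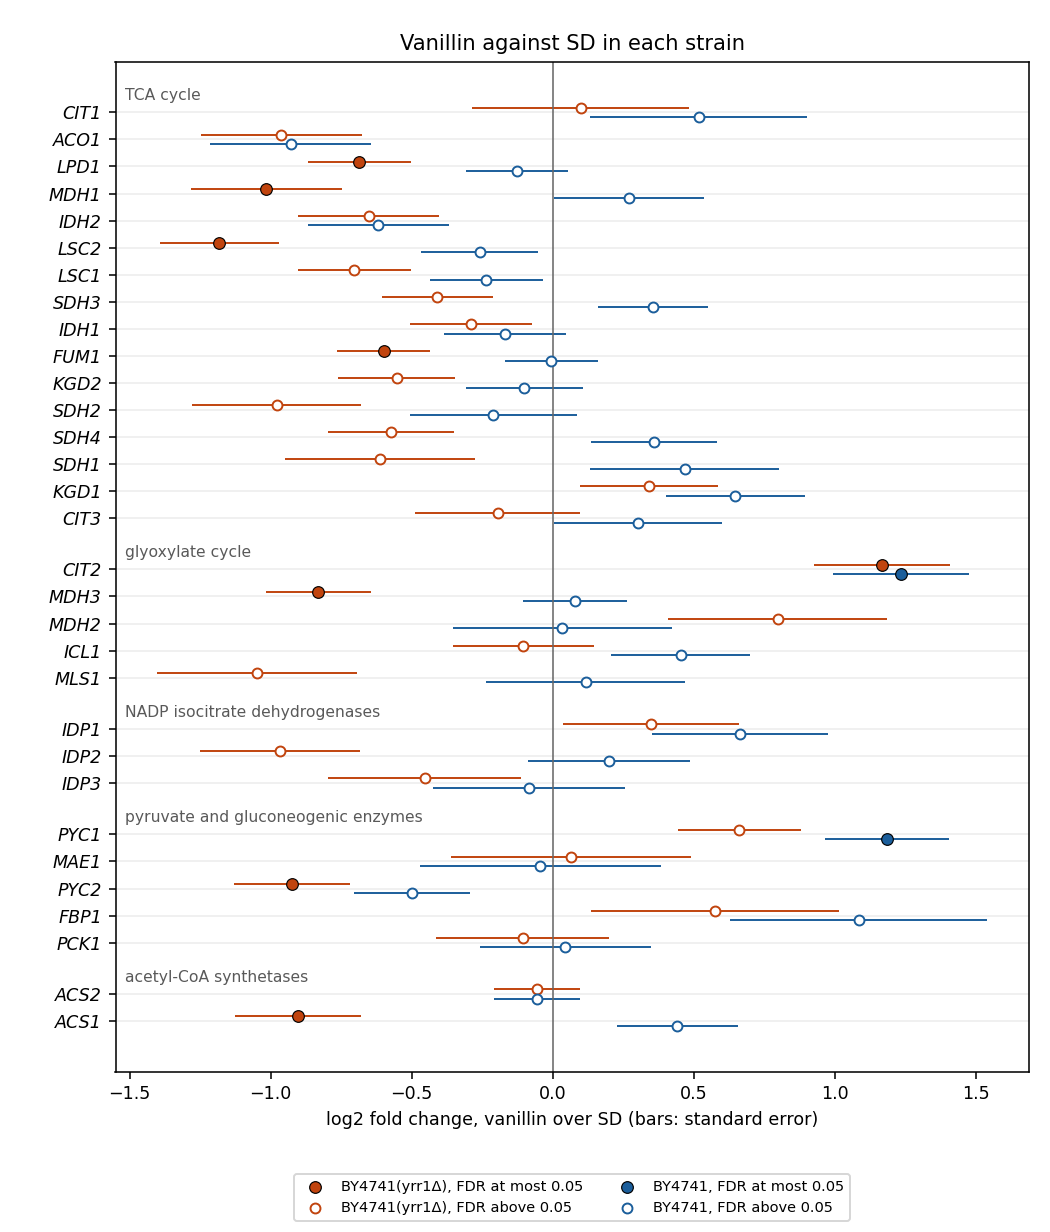
log2 fold change of vanillin over SD for each of 31 genes with its standard error (bars), for BY4741(yrr1Δ) in red and BY4741 in blue, filled where the edgeR FDR is at most 0.05. The 7 filled points left of 0 are all of BY4741(yrr1Δ), and CIT2 is filled right of 0 in both strains, at 1.17 and 1.23.

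LSC2 (YGR244C) encodes the beta subunit of succinyl-CoA ligase, which makes ATP in the TCA cycle. It had 185 and 244 FPKM in BY4741(yrr1Δ) with vanillin, against 357 and 538 FPKM in BY4741(yrr1Δ) in SD (log2 fold change -1.18 ± 0.21, edgeR FDR 0.0103; ± gives the standard error throughout). Both vanillin libraries lay below both SD libraries. In BY4741 it had 347 and 299 FPKM with vanillin, against 471 and 364 FPKM in SD (-0.26 ± 0.21, FDR 0.536). The call in BY4741(yrr1Δ) was lost only without replicate 1 of BY4741(yrr1Δ) with vanillin (FDR 0.0689) among the 8 libraries left out in turn. LSC1 (YOR142W), the alpha subunit, had values of -0.70 ± 0.20, FDR 0.0554, in BY4741(yrr1Δ) and -0.24 ± 0.20, FDR 0.559, in BY4741. DESeq2 called LSC1 in BY4741(yrr1Δ) (FDR 0.0387).

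MDH1 (YKL085W) is the mitochondrial malate dehydrogenase, the last step of the cycle. Its level was 236 and 314 FPKM in BY4741(yrr1Δ) with vanillin, against 378 and 645 FPKM in BY4741(yrr1Δ) in SD (log2 fold change -1.02 ± 0.27, edgeR FDR 0.0437). In BY4741 the level was 442 and 537 FPKM with vanillin, against 537 and 345 FPKM in SD (0.27 ± 0.27, FDR 0.623). The groups were apart in BY4741(yrr1Δ) and overlapped in BY4741. The call was kept in 3 of the 8 fits with 1 library left out, those without BY4741(yrr1Δ) replicate 1 in SD or either BY4741 library in SD.

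LPD1 (YFL018C) encodes dihydrolipoamide dehydrogenase, a subunit common to the 2-oxoglutarate and pyruvate dehydrogenase complexes. It measured 317 and 358 FPKM in BY4741(yrr1Δ) with vanillin, against 409 and 592 FPKM in BY4741(yrr1Δ) in SD (log2 fold change -0.69 ± 0.18, edgeR FDR 0.0442). In BY4741 it measured 414 and 425 FPKM with vanillin, against 551 and 440.2 FPKM in SD (-0.13 ± 0.18, FDR 0.741). FUM1 (YPL262W), fumarase, measured 206 and 201 FPKM in BY4741(yrr1Δ) with vanillin, against 269 and 296 FPKM in BY4741(yrr1Δ) in SD (log2 fold change -0.60 ± 0.16, edgeR FDR 0.0488). Both genes were lower in both vanillin libraries of BY4741(yrr1Δ) than in both SD libraries. FUM1 in BY4741 measured 240.0 and 258 FPKM with vanillin, against 290.4 and 249.8 FPKM in SD (-0.01 ± 0.16, FDR 0.989), and these values overlapped. The call of FUM1 was lost in all 8 fits with 1 library left out, and that of LPD1 in all but the fit without BY4741(yrr1Δ) replicate 1 in SD.

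ACO1 (YLR304C), the aconitase that makes isocitrate in the mitochondrion, had 297 and 439 FPKM in BY4741(yrr1Δ) with vanillin, against 491 and 837 FPKM in BY4741(yrr1Δ) in SD (log2 fold change -0.96 ± 0.29, edgeR FDR 0.0618). In BY4741 it had 246 and 362 FPKM with vanillin, against 719 and 535 FPKM in SD (-0.93 ± 0.29, FDR 0.128). The vanillin libraries lay below the SD libraries in both strains, yet neither difference passed. DESeq2 called both (FDR 0.0116 in BY4741(yrr1Δ) and 0.0338 in BY4741).

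The mitochondrial citrate synthase genes CIT1 (YNR001C) and CIT3 (YPR001W) were not called in either strain. CIT1 had 501 and 587 FPKM in BY4741(yrr1Δ) with vanillin, against 303 and 644 FPKM in BY4741(yrr1Δ) in SD (log2 fold change 0.10 ± 0.38, edgeR FDR 0.89). In BY4741 CIT1 had 469 and 665 FPKM with vanillin, against 593 and 269 FPKM in SD (0.52 ± 0.39, FDR 0.5), so that its SD replicates lay further apart than the groups. CIT3 was low, at 17.2 and 11.4 FPKM in BY4741(yrr1Δ) with vanillin, against 13.5 and 16.8 FPKM in BY4741(yrr1Δ) in SD, and at 14.7 and 15.8 FPKM in BY4741 with vanillin, against 14.6 and 12.2 FPKM in BY4741 in SD.

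The 4 subunits of succinate dehydrogenase, SDH1 (YKL148C) to SDH4 (YDR178W), which pass electrons from succinate to ubiquinone, had log2 fold changes between -0.98 and -0.41 in BY4741(yrr1Δ) and none passed. DESeq2 called SDH2 in BY4741(yrr1Δ) (FDR 0.0209) but did not call FUM1 or ACS1 there. SDH4, the membrane anchor, had 189 and 153 FPKM in BY4741(yrr1Δ) with vanillin, against 224 and 233 FPKM in BY4741(yrr1Δ) in SD (log2 fold change -0.57 ± 0.22, edgeR FDR 0.13). It had 207 and 246 FPKM in BY4741 with vanillin, against 219 and 165 FPKM in BY4741 in SD (0.36 ± 0.22, FDR 0.417). In FPKM, SDH1, SDH2 (YLL041C) and SDH4 were lower in both vanillin libraries of BY4741(yrr1Δ) than in both SD libraries, and SDH3 (YKL141W) was higher in both vanillin libraries of BY4741. The isocitrate dehydrogenase genes IDH1 (YNL037C) and IDH2 (YOR136W) had -0.29 and -0.65 in BY4741(yrr1Δ) and -0.17 and -0.62 in BY4741 on the log2 scale. KGD1 (YIL125W) and KGD2 (YDR148C), the other subunits of the 2-oxoglutarate dehydrogenase complex, had 0.34 and -0.55 in BY4741(yrr1Δ) and 0.65 and -0.10 in BY4741, and none of these 4 genes passed.

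In the glyoxylate group CIT2 (YCR005C) rose in both strains. CIT2 condenses acetyl-CoA with oxaloacetate in the peroxisome and is the usual reporter gene of the retrograde pathway. It had 1045 and 952 FPKM in BY4741(yrr1Δ) with vanillin, against 318 and 507 FPKM in BY4741(yrr1Δ) in SD (log2 fold change 1.17 ± 0.24, edgeR FDR 0.0179). In BY4741 it had 839.6 and 946 FPKM with vanillin, against 495 and 328 FPKM in SD (log2 fold change 1.23 ± 0.24, edgeR FDR 0.0304). All 4 vanillin libraries lay above all 4 SD libraries. The call in BY4741 was lost without any 1 of the 4 BY4741 libraries (FDR up to 0.245, log2 fold change 0.98 to 1.50), and that in BY4741(yrr1Δ) without BY4741(yrr1Δ) replicate 1 in SD or either BY4741(yrr1Δ) library with vanillin (FDR up to 0.0899, log2 fold change 0.93 to 1.43).

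MDH3 (YDL078C), the peroxisomal malate dehydrogenase, had 371 and 333 FPKM in BY4741(yrr1Δ) with vanillin, against 604 and 531 FPKM in BY4741(yrr1Δ) in SD (log2 fold change -0.83 ± 0.19, edgeR FDR 0.0244). Its 4 levels in BY4741 were close together, at 501 and 484 FPKM with vanillin, against 505 and 502 FPKM in SD (0.08 ± 0.18, FDR 0.85). The call in BY4741(yrr1Δ) was kept in 3 of the 8 fits with 1 library left out, those without BY4741(yrr1Δ) replicate 2 in SD or either BY4741 library in SD. MDH2 (YOL126C), the cytosolic enzyme of gluconeogenesis, had 375 and 262 FPKM in BY4741(yrr1Δ) with vanillin, against 125 and 217 FPKM in BY4741(yrr1Δ) in SD (log2 fold change 0.80 ± 0.39, edgeR FDR 0.208). In BY4741 MDH2 had 124 and 231 FPKM with vanillin, against 244 and 135 FPKM in SD (0.03 ± 0.39, FDR 0.972), and its replicates lay as far apart as the groups.

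MLS1 (YNL117W) and ICL1 (YER065C) carry the 2 steps that belong to the glyoxylate cycle alone. MLS1 had 5.86 and 3.94 FPKM in BY4741(yrr1Δ) with vanillin, against 8.31 and 10.6 FPKM in BY4741(yrr1Δ) in SD (log2 fold change -1.05 ± 0.35, edgeR FDR 0.0902). It had 5.94 and 7.96 FPKM in BY4741 with vanillin, against 7.62 and 6.27 FPKM in BY4741 in SD (0.12 ± 0.35, FDR 0.889). ICL1 had -0.10 ± 0.25, FDR 0.813, in BY4741(yrr1Δ) and 0.45 ± 0.25, FDR 0.36, in BY4741. Neither gene passed in either strain.

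The NADP-dependent isocitrate dehydrogenases make 2-oxoglutarate and NADPH in the mitochondrion (IDP1, YDL066W), the cytosol (IDP2, YLR174W) and the peroxisome (IDP3, YNL009W), and none passed. IDP1 had 171 and 409 FPKM in BY4741(yrr1Δ) with vanillin, against 186 and 225 FPKM in BY4741(yrr1Δ) in SD, so that 1 vanillin library lay below and the other above the SD libraries (log2 fold change 0.35 ± 0.31, edgeR FDR 0.493). In BY4741 IDP1 had 266 and 287 FPKM with vanillin, against 194 and 182 FPKM in SD (0.66 ± 0.31, FDR 0.296). IDP2 had 15.9 and 11.7 FPKM in BY4741(yrr1Δ) with vanillin, against 26.5 and 22.9 FPKM in BY4741(yrr1Δ) in SD (log2 fold change -0.97 ± 0.28, edgeR FDR 0.061). The groups of IDP2 did not overlap in that strain. In BY4741 IDP2 had 18.9 and 17.4 FPKM with vanillin, against 15.9 and 18.2 FPKM in SD (0.20 ± 0.29, FDR 0.743). IDP3 had 16.3 and 9.96 FPKM in BY4741(yrr1Δ) with vanillin, against 14.7 and 18.6 FPKM in BY4741(yrr1Δ) in SD, and 16.9 and 12.0 FPKM in BY4741 with vanillin, against 19.1 and 13.9 FPKM in BY4741 in SD.

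The 2 genes for pyruvate carboxylase, which makes oxaloacetate from pyruvate in the cytosol, had fold changes of opposite sign in both strains. PYC1 (YGL062W) had 202 and 158 FPKM in BY4741(yrr1Δ) with vanillin, against 93.0 and 119 FPKM in BY4741(yrr1Δ) in SD (log2 fold change 0.66 ± 0.22, edgeR FDR 0.0849). In BY4741 PYC1 had 175 and 230.0 FPKM with vanillin, against 102 and 90.2 FPKM in SD (log2 fold change 1.19 ± 0.22, edgeR FDR 0.0242). All 4 vanillin libraries were above all 4 SD libraries, and the difference passed in BY4741. PYC2 (YBR218C) had 78.4 and 64.5 FPKM in BY4741(yrr1Δ) with vanillin, against 107 and 145 FPKM in BY4741(yrr1Δ) in SD (log2 fold change -0.92 ± 0.21, edgeR FDR 0.0243). In BY4741 PYC2 had 72.6 and 89.1 FPKM with vanillin, against 121 and 126 FPKM in SD (-0.50 ± 0.21, FDR 0.238). All 4 vanillin libraries were below all 4 SD libraries, and the difference passed in BY4741(yrr1Δ). The call of PYC1 in BY4741 was lost without any 1 of the 4 BY4741 libraries (FDR up to 0.235), and that of PYC2 in BY4741(yrr1Δ) without replicate 2 of either BY4741(yrr1Δ) group (FDR up to 0.122). The 2 coding sequences were identical at 85.5% of 3532 aligned bases. They were the only 2 of the 32 genes with counts that were not whole, so some reads may have been divided between them.

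The enzymes that act only in gluconeogenesis stayed near the bottom of the range. FBP1 (YLR377C) had 17.0 and 10.4 FPKM in BY4741(yrr1Δ) with vanillin, against 10.5 and 6.22 FPKM in BY4741(yrr1Δ) in SD (log2 fold change 0.58 ± 0.44, edgeR FDR 0.417). In BY4741 FBP1 had 13.9 and 12.9 FPKM with vanillin, against 8.38 and 5.26 FPKM in SD (1.08 ± 0.46, FDR 0.248), where the groups did not overlap but the difference did not pass. PCK1 (YKR097W) had -0.11 ± 0.31, FDR 0.847, in BY4741(yrr1Δ) and 0.04 ± 0.30, FDR 0.949, in BY4741. MAE1 (YKL029C), the mitochondrial malic enzyme, had 0.06 ± 0.43, FDR 0.934, in BY4741(yrr1Δ) and -0.04 ± 0.43, FDR 0.965, in BY4741.

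The acetyl-CoA synthetases lay far apart in level. ACS1 (YAL054C), which serves growth on acetate and is repressed by glucose, had 11.2 and 10.9 FPKM in BY4741(yrr1Δ) with vanillin, against 19.5 and 18.5 FPKM in BY4741(yrr1Δ) in SD (log2 fold change -0.90 ± 0.22, edgeR FDR 0.0331). In BY4741 ACS1 had 19.5 and 21.0 FPKM with vanillin, against 14.5 and 17.6 FPKM in SD (0.44 ± 0.22, FDR 0.309). ACS1 was below the SD libraries in BY4741(yrr1Δ) and above them in BY4741. Its call was kept only in the fits without a BY4741 library in SD among the 8. ACS2 (YLR153C), the enzyme of growth on glucose, had 275 and 262 FPKM in BY4741(yrr1Δ) with vanillin, against 239 and 276 FPKM in BY4741(yrr1Δ) in SD, and 260.1 and 257 FPKM in BY4741 with vanillin, against 294 and 286 FPKM in BY4741 in SD. The highest ACS2 level was 294 FPKM and the lowest 239 FPKM.

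**Figure D3:**
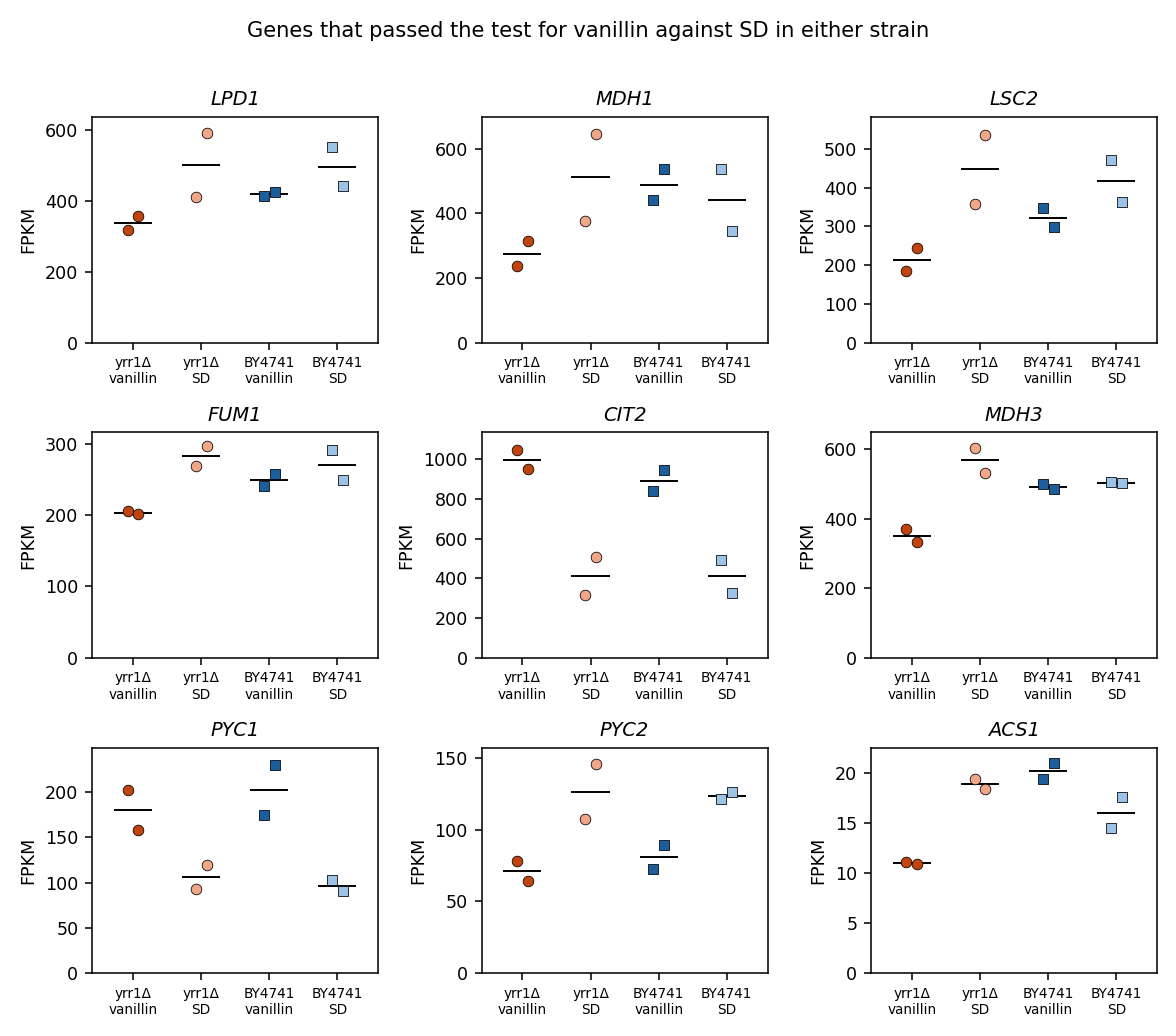
FPKM in each library of the 9 genes called for vanillin against SD in at least 1 strain, with points for libraries, a line at the mean of the 2 replicates, and axes from 0. LSC2 sits at 185 and 244 FPKM in BY4741(yrr1Δ) with vanillin, against 357 and 538 FPKM in BY4741(yrr1Δ) in SD, while CIT2 and PYC1 are higher with vanillin in both strains.

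A fit without BY4741(yrr1Δ) replicate 1 and BY4741 replicate 2 in SD kept 1 SD library a strain. The median log2 fold change of the 32 genes was then -0.52 in BY4741(yrr1Δ) and 0.02 in BY4741, against 0.03 and 0.00 over all genes. Without the other 2 SD libraries it was -0.30 and 0.18, against 0.05 and 0.00 over all genes. In bulk RNA, a lower level in each cell and fewer cells that express a gene cannot be told apart.

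Other gene groups moved in the same libraries. Of 16 genes repressed by high glucose, 9 fell and 0 rose with vanillin in BY4741(yrr1Δ), and 1 fell and 1 rose in BY4741. Their summed level was 1197 to 1865 FPKM in BY4741(yrr1Δ) with vanillin, against 4549 to 5787 FPKM in BY4741(yrr1Δ) in SD, and 2609 to 3194 FPKM in BY4741 with vanillin, against 2779 to 5257 FPKM in BY4741 in SD. HXT7, a high-affinity hexose transporter, had 201 and 26.6 FPKM in BY4741(yrr1Δ) with vanillin, against 1207 and 1577 FPKM in BY4741(yrr1Δ) in SD (log2 fold change -3.69, edgeR FDR 0.0209). It fell as far in BY4741, with 79.8 and 70.5 FPKM with vanillin, against 1466 and 613 FPKM in SD (log2 fold change -3.67, edgeR FDR 0.0444). Both vanillin libraries of BY4741(yrr1Δ) were thus below both SD libraries in the summed level, while 4 of the 16 genes had log2 fold changes above 0 in that strain and none of these 4 passed. Of 15 genes of stationary phase and general stress, 14 were tested, of which 9 fell and 1 rose in BY4741(yrr1Δ), and 7 fell and 2 rose in BY4741. Their sum was 5067 to 5723 FPKM in BY4741(yrr1Δ) with vanillin, against 23237 to 25222 FPKM in BY4741(yrr1Δ) in SD, and 6289 to 7201 FPKM in BY4741 with vanillin, against 18018 to 18390.2 FPKM in BY4741 in SD. Most of the sum in SD was HSP12 alone. It had 301 and 457 FPKM in BY4741(yrr1Δ) with vanillin, against 18964 and 14671 FPKM in SD. In BY4741 HSP12 had 789 and 579 FPKM with vanillin, against 11245 and 13004 FPKM in SD. The sum thus says little of the other genes, and log2 fold changes were above 0 for 4 of the 14 in BY4741(yrr1Δ) and 5 in BY4741. FMP16 of this list was at 0 in both libraries of BY4741(yrr1Δ) with vanillin. The part of growth stage or glucose state in the changes of the 32 genes was not tested.

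Other genes of the same pathways were taken from lists. Of the 8 pyruvate dehydrogenase complex genes, which feed acetyl-CoA to the cycle, 2 fell in BY4741(yrr1Δ) and none was called in BY4741. PDA1, the E1 alpha subunit, had 501 and 494 FPKM in BY4741(yrr1Δ) with vanillin, against 776 and 754 FPKM in BY4741(yrr1Δ) in SD (log2 fold change -0.75, edgeR FDR 0.0209). LAT1, the acetyltransferase subunit, had 419.9 and 542 FPKM in BY4741(yrr1Δ) with vanillin, against 846 and 756 FPKM in BY4741(yrr1Δ) in SD (log2 fold change -0.88, edgeR FDR 0.0209). Both subunits were lower in both vanillin libraries. Of 13 accessory and paralogue genes of the cycle, 4 fell and 1 rose in BY4741(yrr1Δ), and 1 rose in BY4741. SHH4, a paralogue of SDH4, had 23.0 and 19.0 FPKM in BY4741(yrr1Δ) with vanillin, against 83.4 and 75.1 FPKM in BY4741(yrr1Δ) in SD (log2 fold change -2.07, edgeR FDR 0.00506). The other 3 that fell were KGD4, a subunit of the 2-oxoglutarate dehydrogenase complex (log2 fold change -1.02, edgeR FDR 0.0244), the assembly factor SDH8 (log2 fold change -0.92, edgeR FDR 0.0212) and SDH9, a paralogue of SDH1 (log2 fold change -2.08, edgeR FDR 0.00601). DLD3, a cytosolic 2-hydroxyglutarate transhydrogenase and a known retrograde target like CIT2, rose in both strains. It had 870.2 and 833 FPKM in BY4741(yrr1Δ) with vanillin, against 335 and 416 FPKM in BY4741(yrr1Δ) in SD (log2 fold change 1.06, edgeR FDR 0.00736). In BY4741 DLD3 had 683 and 755 FPKM with vanillin, against 463 and 375 FPKM in SD (log2 fold change 0.89, edgeR FDR 0.029).

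Of 8 retrograde regulators, edgeR called none in any of the comparisons. Of 15 regulators of respiratory and gluconeogenic genes, 1 was called, the activator ADR1, which rose in BY4741(yrr1Δ). It had 59.1 and 57.7 FPKM in BY4741(yrr1Δ) with vanillin, against 16.8 and 26.8 FPKM in BY4741(yrr1Δ) in SD (log2 fold change 1.32, edgeR FDR 0.0143). Of 16 carrier and uptake genes tested, 1 rose in each strain, the oxaloacetate carrier OAC1 in BY4741(yrr1Δ) (log2 fold change 0.87, edgeR FDR 0.0378) and the lactate and pyruvate permease JEN1 in BY4741 (log2 fold change 1.62, edgeR FDR 0.0116). Of 9 genes for the degradation of fructose-1,6-bisphosphatase, VID24 fell in BY4741, at 45.6 and 64.8 FPKM with vanillin, against 193 and 209 FPKM in SD (log2 fold change -1.75, edgeR FDR 0.0056). The enzyme's own gene FBP1 did not pass in that strain.

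Between BY4741(yrr1Δ) and BY4741 in SD, edgeR called 0 of the 32 genes, against 0.0182% of all genes, the 1 gene being YRR1. DESeq2 and limma also called 0 of the 32, and 0 of them had an unadjusted p under 0.05, against 1.78% of all genes. The log2 fold changes were small and mostly positive: 28 of the 32 were above 0, against 49.0% of all genes, and the median was 0.17, against -0.01 over all genes. SDH4 had 224 and 233 FPKM in BY4741(yrr1Δ), against 219 and 165 FPKM in BY4741 (log2 fold change 0.35 ± 0.22, edgeR FDR 1), and IDP2 had the largest value, 0.62 ± 0.28, with 26.5 and 22.9 FPKM against 15.9 and 18.2 FPKM in BY4741. The median was 0.0026 without BY4741(yrr1Δ) replicate 2 and 0.31 without BY4741 replicate 1, so that it depended on which SD libraries were included.

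With vanillin, BY4741(yrr1Δ) and BY4741 also differed in 0 of the 32 genes by edgeR, against 0.618% of all genes, but 10 had an unadjusted p under 0.05, against 22.9% of all genes. DESeq2 called 2 of the 32, MDH1 among them, and limma called 1. Of all 5506 genes DESeq2 called 94 higher and 163 lower, and limma on log2(FPKM + 1) 9 and 41. The median was -0.31, against -0.01 over all genes, and 26 of the 32 were negative, against 51.1% of all genes. On normalized counts both values of 16 genes were lower in BY4741(yrr1Δ), against 30.1% of all genes. ACS1 had the smallest FDR, with 11.2 and 10.9 FPKM in BY4741(yrr1Δ), against 19.5 and 21.0 FPKM in BY4741 (log2 fold change -1.03 ± 0.22, edgeR FDR 0.0727). MDH1 had 236 and 314 FPKM in BY4741(yrr1Δ), against 442 and 537 FPKM in BY4741 (log2 fold change -1.01 ± 0.27, edgeR FDR 0.0998). For both genes the 2 strains did not overlap. CIT2, by contrast, had a difference of 0.00 ± 0.24 on the log2 scale. ACS1 and MDH1 were among the 3 genes that passed when the fit held the 4 vanillin libraries alone (FDR 0.0459 and 0.0351). That fit called 156 higher and 161 lower of all 5461 genes it tested.

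**Figure D4:**
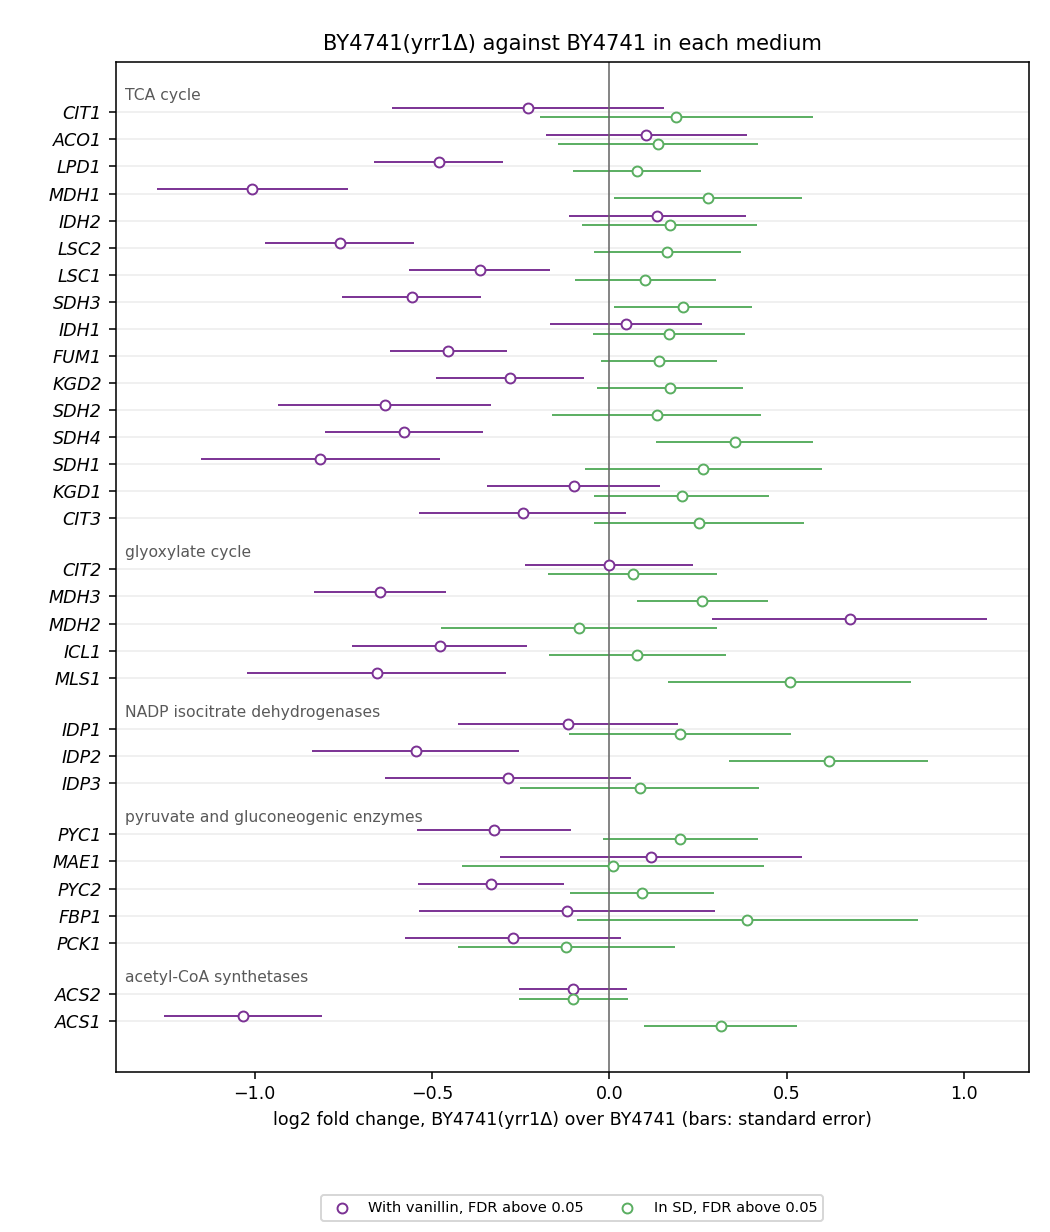
log2 fold change of BY4741(yrr1Δ) over BY4741 for each of 31 genes with its standard error (bars), with vanillin in purple and in SD in green, all open because every edgeR FDR was above 0.05. With vanillin ACS1 and MDH1 lie at -1.03 and -1.01, while in SD the values lie between -0.12 and 0.62.

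The difference between the strains in their response to vanillin was tested as an interaction. EdgeR called 0 of the 32 genes, against 0.0908% of all genes, and 11 had an unadjusted p under 0.05, against 20.5% of all genes. DESeq2 called 2, MDH1 among them, against 60 higher and 156 lower of all 5506 genes, and limma called 0 of the 32. The interaction was negative for 29 of the 32 genes, against 49.7% of all genes, with a median of -0.48, against 0.00 over all genes. The values were -1.35 ± 0.31, FDR 0.109, for ACS1 and -1.28 ± 0.38, FDR 0.138, for MDH1. For CIT2 it was -0.07 ± 0.34. No gene that passed in 1 strain alone is thus shown by edgeR to respond differently in the other. The falls of LSC2, MDH3, PYC2, LPD1 and FUM1 in BY4741(yrr1Δ) had interaction FDRs of 0.151, 0.135, 0.434, 0.259 and 0.2.

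The balance between isozymes was measured as the ratio of their FPKM in each library, which does not depend on how libraries are scaled. Of 12 pairs, which share genes and so are not independent, 3 did not overlap between the 4 vanillin and the 4 SD libraries. Each of these holds CIT2, PYC1 or PYC2, whose own levels already separated the 4 vanillin from the 4 SD libraries. PYC1/PYC2 was 2.58 and 2.44 in BY4741(yrr1Δ) with vanillin, against 0.868 and 0.817 in BY4741(yrr1Δ) in SD, and 2.41 and 2.58 in BY4741 with vanillin, against 0.846 and 0.716 in BY4741 in SD. PYC2 was therefore the more abundant transcript in SD and PYC1 the more abundant with vanillin, by a 3.09-fold shift of the ratio. CIT1/CIT2 was 0.479 to 0.703 with vanillin, against 0.821 to 1.27 in SD, and CIT2/CIT3 was 57.0 to 83.6 with vanillin, against 23.5 to 34.0 in SD. An exact two-sided permutation test of 4 against 4 libraries gave p = 0.0286 for each of these 3, the smallest it can give, and 0.114 after adjustment over the 12 pairs, so that none passed. At that smallest p, at least 7 of the 12 pairs would have had to separate fully for any to pass, so the adjusted value says little here. The test disregards strain, and the 4 libraries of a medium come from both strains.

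Other ratios stood apart in BY4741(yrr1Δ) with vanillin. MDH1/MDH2 was 0.63 and 1.20 in BY4741(yrr1Δ) with vanillin, against 3.02 and 2.97 in BY4741(yrr1Δ) in SD, and 3.56 and 2.32 in BY4741 with vanillin, against 2.20 and 2.56 in BY4741 in SD. ACS1/ACS2 was 0.0406 and 0.0417 in BY4741(yrr1Δ) with vanillin, below the 0.0494 to 0.0818 of the other 6 libraries. These differences within 1 strain rest on 2 libraries a group and were not tested. The coding sequences of these pairs were identical at 60.3% and 63.3% of aligned bases.

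**Figure D5:**
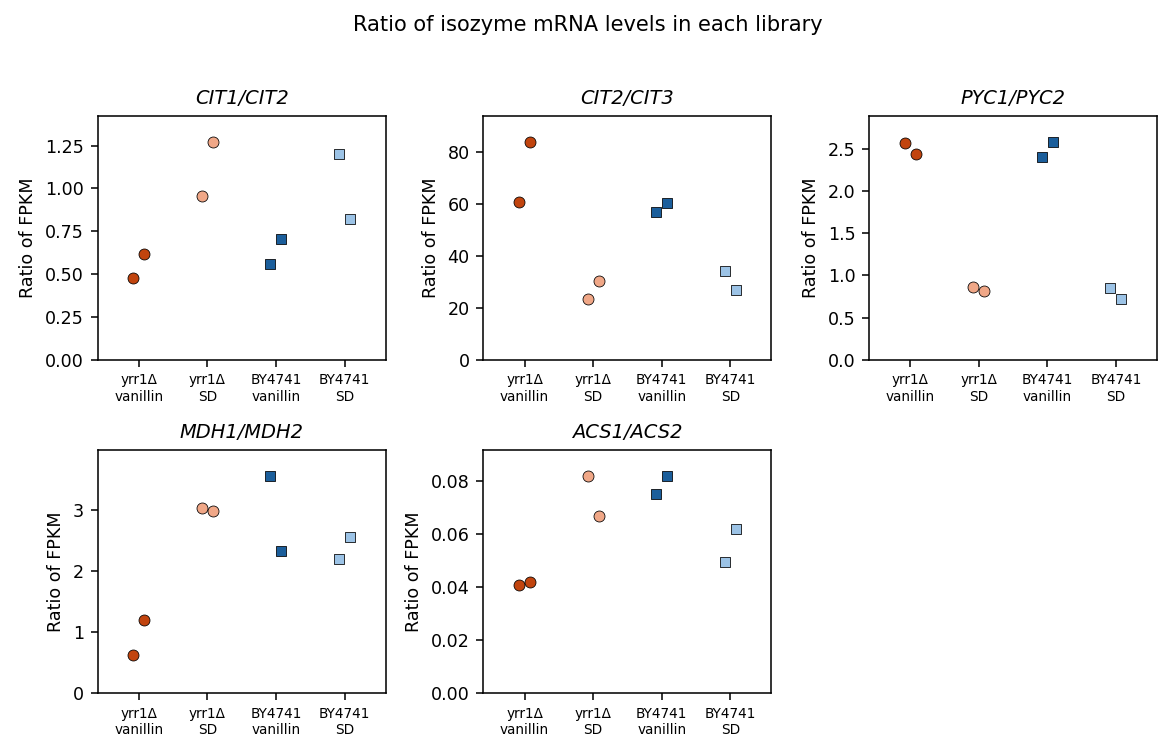
Ratio of the FPKM of the 2 named isozymes in each of the 8 libraries for 5 of the 12 pairs, with points for libraries and axes from 0. PYC1/PYC2 lies between 2.41 and 2.58 with vanillin and between 0.716 and 0.868 in SD in both strains.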

How the data were processed

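Poly(A) RNA of 8 libraries was sequenced by the study, and for each library the authors deposited, without normalization, the expected count of every gene, and its FPKM. The labels name genome build R64, and the aligner and the counting tool are not given in the sources used here. The deposited comparison tables hold the authors' own group means, log2 ratios and scores and were not used. Member lengths equalled those of R64 for all 32 genes, and no member overlapped another annotated gene. The lengths hold no UTRs (98.6% are multiples of 3).

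Counts were rounded to whole numbers and fitted with edgeR 4.0.16 under R 4.3.3 (filterByExpr, TMM, quasi-likelihood test, 1 model of the 4 groups, 5506 genes tested of 5782, FDR limit 0.05 by Benjamini-Hochberg). Library totals were 2195324 to 2453837. Precision is limited by 2 replicates a group, which the study calls biological duplicates. In the main fit a p-value sets a difference against a spread estimated from all 8 libraries and moderated across genes. A call in 1 strain therefore also depends on the libraries of the other. Alternatives were DESeq2's size factors, library size alone, no count filter, DESeq2 1.42.0, a fit of only the groups compared, limma 3.58.1 on log2(FPKM + 1) or log2(FPKM + 0.1), the study's limits (fold change of at least 2 and FDR of at most 0.001), a replicate block, and each library left out in turn. Of the fits, edgeR's alone was tested on simulated counts. These were drawn with 1 common spread for all genes and without the opposed SD replicates seen here, so the outcome is not used as support. Sequences were handled with Biopython 1.88 in Python 3.11.15, and isozyme coding sequences were aligned globally.

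The genes given with values in every library were those called in a comparison, those with the largest log2 fold change of their role group in a comparison, and the isozyme families CIT, IDP, MDH, PYC and ACS. Other genes were named only from lists, where called, at most 5 per list and direction. The 32 genes and the lists were chosen with earlier results of these data known. The values of 1 of the 32 genes are not reported here, though it stands in the counts and medians.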

Additional observations from a re-analysis of the deposited data

How the results depend on the processing

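With 2 libraries a group, the counts of called genes rested on single libraries, while the log2 fold changes of the called genes kept their direction in all 19 alternatives. In BY4741 the 2 calls became 3 with DESeq2, 0 with the replicate block and 0 under the study's limits. The count fell without BY4741(yrr1Δ) replicate 1 and BY4741 replicate 2 in SD and without the other 2 SD libraries. It fell or held with 1 library left out. Over all genes DESeq2 called 209 higher and 81 lower in BY4741, against 128 and 45 in the main fit. The BY4741 median of 0.06 ranged from 0.02 to 0.15 with 1 library left out. It turned to -0.0461 with library size alone and to -0.0449 and -0.0448 with limma on log2 of FPKM plus 1 and 0.1. The median of all genes was then -0.13, -0.12 and -0.13, against -0.02 with the main scaling. In BY4741(yrr1Δ) the 8 calls became 9 with DESeq2, 7 without the count filter and 6 with library size alone. They became 4 with limma at either pseudocount, 2 with only the groups compared, 3 with the replicate block and 0 under the study's limits. The count was higher without the first 2 SD libraries, lower without the other 2, and lower with any 1 library left out. DESeq2 called 272 higher and 387 lower of all genes, against 252 and 365 in the main fit. Over all genes limma on log2 of FPKM plus 1 called 341 higher and 298 lower in BY4741(yrr1Δ). Only the groups compared gave 100 and 184 of all genes, and the replicate block 148 and 252. The median of -0.50 ranged from -0.62 to -0.32 with 1 library left out and was -0.30 without the other 2 SD libraries. Between the strains with vanillin the 0 calls became 1 with library size alone, 1 with limma at either pseudocount and 1 with the crossed block. They became 2 with DESeq2 and 3 with only the groups compared. Over all genes the main fit called 2 higher and 32 lower. Library size alone gave 8 and 24, limma on log2 of FPKM plus 1 gave 9 and 41, and the crossed block 4 and 37. DESeq2 gave 94 and 163, and only the groups compared 156 and 161 of 5461. The calls among the 32 and over all genes also rose in the fits that kept 1 SD library a strain. The median of -0.31 between the strains with vanillin was -0.16 with library size alone and with limma, at either pseudocount. The median of all genes was then 0.14 with library size alone and 0.14 and 0.15 with limma, against -0.01 with the main scaling. With 1 library left out the median of -0.31 ranged from -0.55 to -0.18. For the interaction DESeq2 gave 2 calls. Its median of -0.48 was -0.27 with library size alone and -0.25 and -0.26 with limma. The median of all genes was then 0.22 with library size alone and 0.24 and 0.25 with limma, against 0.00 with the main scaling. In both comparisons the median of all genes thus rose as well. With 1 library left out the interaction median of -0.48 ranged from -0.66 to -0.31. Between the strains in SD the median of 0.17 ranged from 0.0026 to 0.31 with 1 library left out, and FBP1, at 0.39, ranged from -0.15 without BY4741(yrr1Δ) replicate 1 to 0.80 without BY4741(yrr1Δ) replicate 2, and was -0.42 without both of the first 2 SD libraries. The cause of these changes was not tested.

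Same-numbered replicates did not deviate together: over 5506 genes the correlations ran from -0.58 to 0.18 between groups, so the numbers were not treated as pairs. The crossed block, chosen after seeing the data, gave 2, 6, 0, 1 and 0 calls among the 32 genes, against 0, 3, 0, 0 and 0 with the replicate block, for vanillin in BY4741, vanillin in BY4741(yrr1Δ), the strains in SD, the strains with vanillin and the interaction. Depth limits MLS1, PCK1 and FBP1 most, whose counts reach down to 11.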
